A study of Danio rerio with 6 samples.

Results

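H3K27ac, the acetylation of histone H3 at lysine 27, was mapped by chromatin immunoprecipitation and sequencing (ChIP-seq) in a zebrafish primary melanoma and in the zebrafish melanoma cell line zcrest. The regions described here are tumor H3K27ac peaks that lie across a gap between called peaks of the cell line. Whether such a gap is a dip in acetylation cannot be read from peak lists of unknown depth. They were selected on peak position and width: tumor peaks under 800 bases wide that share at least 1 base with each of 2 or more zcrest H3K27ac peaks. There were 2068 of them among 59760 tumor peaks, and they are called bridging tumor peaks below. Since both lists were used to choose them, the number of peaks bridged and the widths are a description and carry no test.

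The tumor came from a founder of genotype p53/BRAF/Na that had been injected with MiniCoopR;mitf:EGFP as a control plasmid, and it was dissected in bulk, and was dissociated before crosslinking. The zcrest line came from a founder of genotype p53/BRAF/Na with crestin:EGFP and MiniCoopR alone, and had been passaged more than 20 times in culture. Both sources thus share the p53/BRAF/Na background and MiniCoopR, a vector that carries a minigene of mitfa, the master regulator of melanocytes. The mitf:EGFP reporter marks cells of the melanocyte lineage, and crestin:EGFP marks neural crest cells. Another list gave peaks in zcrest of sox10, which binds DNA and specifies neural crest and pigment cells. Each list comes from 1 library, the line is a single line, and the tumor is a single tumor, so no difference between them has a replicate check. In a bulk tumor, fewer cells with a mark and less of the mark per cell cannot be told apart.

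H3K27ac is carried by nucleosomes, mainly at active promoters and enhancers. At the centre of such an element nucleosomes are often displaced by bound transcription factors, which leaves a dip in the signal between acetylated nucleosomes on both sides. A peak caller reports such an element as 1 peak when the dip stays above its threshold and as neighbouring peaks when it does not. It also smooths reads over about a fragment length and joins stretches that lie close together. In these lists the narrowest peak measured 147 bases in the tumor and 139 bases in zcrest, and the smallest gap between neighbouring peaks was 52 bases in both. No gap shorter than that could therefore be bridged.

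Nearly all bridging tumor peaks lay over exactly 2 zcrest peaks. Of the 2068, 2042 (98.7%, exact 95% interval 98.2% to 99.2%) did so, and 26 (1.26%, 0.823% to 1.84%) lay over 3. None under 800 bases lay over more than 3. The 2068 made up 3.56% of the 58140 tumor peaks under 800 bases, and 9.24% of the 22390 that overlapped any zcrest peak. They lay over 4136 distinct zcrest peaks, 26 of which were reached by 2 different bridging peaks. In the reverse case, 1044 zcrest peaks under 800 bases lay over 2 or more tumor peaks, which is 2.27% of 45926. Of these, 1035 lay over 2 tumor peaks and 9 over 3.

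The difference between the 2068 and the 1044 depended on the width limit and on the overlap asked for. With an overlap of at least 50% of each spanned peak, the numbers were 436 tumor peaks and 357 zcrest peaks, a ratio of 1.22. Only 2.71% of tumor peaks, but 8.76% of zcrest peaks, were 800 bases wide or more. Without the limit the numbers were 2680 tumor peaks and 2303 zcrest peaks, a ratio of 1.16 against 1.98 under the limit. The wider spanning peaks numbered 612 in the tumor and 1259 in zcrest. As shares of all peaks of any width, spanning peaks made up 4.48% (4.32% to 4.65%) of the tumor list and 4.58% (4.39% to 4.76%) of the zcrest list. With a zcrest limit of 1164 bases, the same percentile of its widths as 800 bases in the tumor, the reverse case held 1721 peaks. That limit was chosen after the data were seen.

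At equal width, tumor peaks spanned the other list more often than zcrest peaks did. The share rose with width in both directions. It was 4.36% (3.94% to 4.81%) of tumor peaks and 1.45% (1.19% to 1.74%) of zcrest peaks at 300 to 399 bases. At 500 to 599 bases it was 13.8% (12.49% to 15.1%) of tumor peaks and 5.50% (4.78% to 6.29%) of zcrest peaks. At 700 to 799 bases it was 24.5% (21.8% to 27.3%) of tumor peaks and 12.49% (11% to 14.1%) of zcrest peaks. The intervals reflect counting error alone, and peaks that lie side by side are not independent. Neighbouring peaks less than 800 bases apart, which are what can be spanned, were also unequal in number. The tumor list held 13485 such neighbours and the zcrest list 21011. The part of that excess in the difference between directions was not tested.

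**Figure D1:**
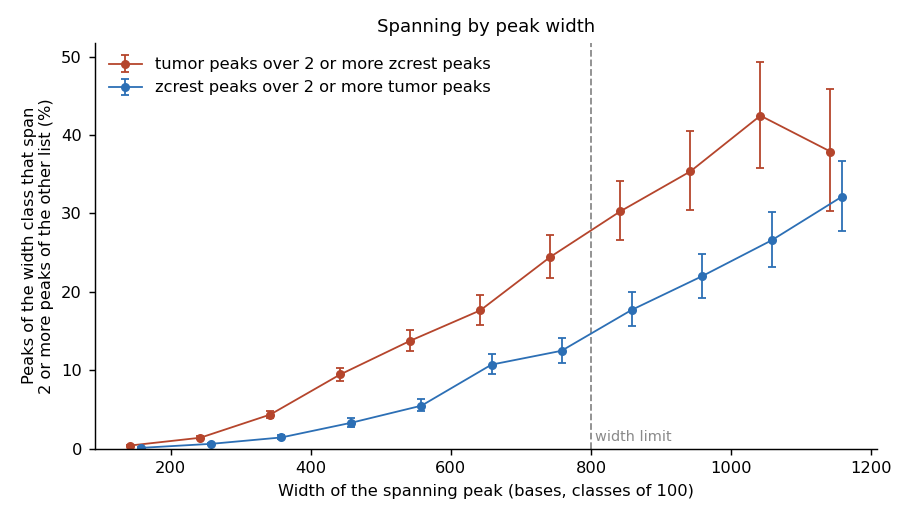
Share of peaks that span 2 or more peaks of the other list (y, percent) by width of the spanning peak (x, bases, classes of 100), for tumor peaks over zcrest peaks and zcrest peaks over tumor peaks; bars are exact 95% intervals and the dashed line is the limit of 800 bases. The tumor share is 24.5% and the zcrest share 12.49% in the last class under the limit.

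Bridging tumor peaks were wide for their list, as their choice requires. Their median width was 466 bases, with quartiles of 347 and 598 bases and a range of 147 to 799 bases. All tumor peaks under 800 bases had a median of 235 bases. Reverse-case zcrest peaks had a median width of 577 bases (quartiles 445 and 684, range 141 to 799), and all zcrest peaks under 800 bases had a median of 272 bases. Next to the limit, 27 members were 790 to 799 bases wide, with a median fold enrichment of 9.38, and 22 spanning peaks outside it were 800 to 809 bases wide, with 10.1. The widest member, 799 bases at chr2:10798817-10799615 (Zv9), had a fold enrichment of 12.4 over the caller's background. The nearest spanning peak outside, 800 bases at chr23:6505007-6505806, had 9.95.

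The fold enrichment of bridging tumor peaks was high within the tumor list as a whole, but not among peaks of the same width that met the cell line once. Fold enrichment is the authors' own value for each peak and is read here within 1 list at a time. Its median was 7.49 in bridging tumor peaks (quartiles 5.56 and 10.3, range 2.31 to 36.8), 6.74 in tumor peaks under 800 bases over exactly 1 zcrest peak and 4.91 in those over none. Among tumor peaks 400 to 499 bases wide the medians were 7.34, 8.20 and 5.63 in the same order. At 600 to 699 bases they were 8.43, 8.85 and 6.13. Ranked by fold enrichment, 0.998% of tumor peaks in the lowest decile bridged and 9.10% in the highest, where the median width was also larger (377 against 205 bases). For zcrest peaks the lowest decile held 1.76% and the highest 4.12%, where the median width was also larger (464 against 212 bases). The zcrest rise was not steady, with 1.15% in the decile next to the lowest and 4.22% in that next to the highest.

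The gaps between zcrest peaks that tumor peaks crossed were short. The zcrest gap under bridging peaks with 2 zcrest peaks had a median of 110 bases (107 to 113), quartiles of 75.3 and 162 bases, and a range of 52 to 606 bases. Tumor gaps under the reverse-case zcrest peaks had a median of 144 bases (137 to 151), quartiles of 86.5 and 208.5 bases, and a range of 52 to 590 bases. Gaps under 100 bases made up 42.0% of pairs under tumor peaks and 30.5% of pairs under zcrest peaks. Gaps of 200 bases or more made up 15.4% of pairs under tumor peaks and 27.9% under zcrest peaks. Both distributions began at their highest value, right at the smallest gap that the lists contain. A spanning peak under 800 bases must contain the gap, so short gaps were likely beforehand. Short gaps were also common among all neighbouring peaks under 800 bases apart. Gaps of 52 to 74 bases numbered 2152 in zcrest and 1089 in the tumor, and gaps of 75 to 99 bases 1926 and 812. Gaps of 400 to 799 bases numbered 3922 of 21011 in zcrest and 4453 of 13485 in the tumor. The tumor list thus held more long gaps. The medians of 110 and 144 bases come from 2 lists with different widths, numbers and gaps, and their difference has no test.

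**Figure D2:**
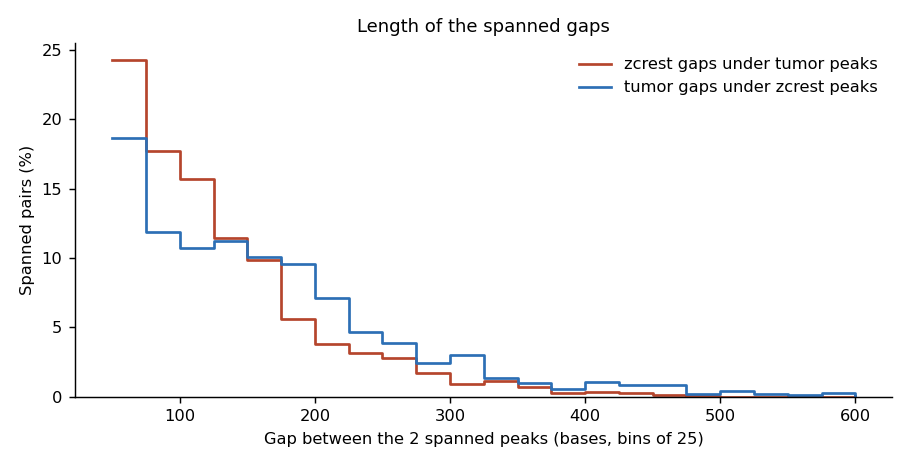
Length of the gap between the 2 spanned peaks (x, bases, bins of 25) as a share of spanned pairs (y, percent), for zcrest gaps under 2042 tumor peaks and tumor gaps under 1035 zcrest peaks. The tumor-spanned gaps have a median of 110 bases and the zcrest-spanned gaps one of 144 bases.

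Bridging tumor peaks seldom covered the whole stretch of the zcrest peaks that they bridged. The stretch between the outer ends of the bridged zcrest peaks had a median of 814 bases, and it was wider than the tumor peak in 1898 of 2068 cases (91.8%). The rule limits the width of the tumor peak but not of the zcrest peaks, which favours a wider stretch beforehand. In the reverse case the stretch of tumor peaks was wider in 855 of 1044 (81.9%). Both ends of the tumor peak lay inside zcrest peaks in 1453 cases (70.3%, 68.2% to 72.2%). In 557 cases (26.9%) 1 end did, and in 58 cases (2.80%) the tumor peak contained all the zcrest peaks. Reverse-case zcrest peaks had both ends inside tumor peaks in 552 of 1044 (52.9%, 49.8% to 55.9%). Of all bases in bridging tumor peaks, 67.3% were shared with zcrest peaks, 28.0% fell in the gaps and 4.67% lay beyond the bridged peaks. For reverse-case zcrest peaks the shares were 61.0%, 29.8% and 9.13%.

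Some bridges were thin. The smaller of the overlaps had a median of 77 bases, it was under 25 bases in 354 bridging tumor peaks (17.1%), and it was a single base in 12. All 90 bridging tumor peaks under 200 bases had both ends inside zcrest peaks, with a median gap of 79.5 bases, and their summit lay in the gap in 64 (71.1%, 60.6% to 80.2%). An end outside would require a whole zcrest peak, of at least 139 bases, and a gap of at least 52 bases within the tumor peak. Both ends inside was therefore nearly fixed beforehand. At 700 to 799 bases the summit lay in a gap in 22.3% (17.1% to 28.1%). A gap fills more of a narrow peak than of a wide one, so a higher share in narrow peaks was likely beforehand.

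The tumor summit, the position of the peak's highest signal, was more often on a zcrest peak than in the gap. It lay in a zcrest gap in 765 of the 2068 bridging tumor peaks (36.99%, 34.9% to 39.1%). It lay on a bridged zcrest peak in 1283 (62.0%) and beyond the bridged peaks in 20 (0.967%). In the reverse case the zcrest summit lay in a tumor gap in 299 of 1044 (28.6%, 25.9% to 31.5%), on a spanned tumor peak in 721 (69.1%) and beyond in 24 (2.30%). The share of summits in gaps compares with gaps making up 28.0% of the bases of bridging tumor peaks and 29.8% of those of reverse-case zcrest peaks. Gaps lie towards the middle of the spanning peak by the rule itself, since the peak must reach past both edges. The midpoint of the peak follows from its called ends, which depend on the signal, but not from where the signal is highest. It fell in a gap in 48.4% of bridging tumor peaks (46.2% to 50.5%) and in 50.4% of reverse-case zcrest peaks (47.3% to 53.5%). The summits of both lists were thus in gaps less often than the midpoints of the same peaks, by 11.4 percentage points in the tumor and 21.7 in zcrest.

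Tumor summits lay nearer to the centre of the zcrest gap than zcrest summits lay to the centre of the tumor gap, in peaks and gaps of unequal size. The distance from summit to gap centre had a median of 90.8 bases (86.0 to 97.5) over 2042 bridging tumor peaks with 2 zcrest peaks. It had a median of 138 bases (132 to 148) over 1035 reverse-case zcrest peaks. The summit was within 75 bases of the centre in 43.1% of the tumor peaks and in 28.5% of the zcrest peaks. Summits within 25 bases of a gap edge, where a small shift would change their class, made up 23.7% of the tumor peaks and 20.2% of the zcrest peaks. A more central summit was also found in tumor peaks over exactly 1 zcrest peak, and not in bridging peaks alone. At a width of 400 to 499 bases, the median distance of the summit from the midpoint was 18.6% of the width in bridging tumor peaks and 22.7% in reverse-case zcrest peaks. In peaks over exactly 1 peak of the other list it was 17.2% in the tumor and 21.8% in zcrest. Tumor peaks of that width over no zcrest peak had 20.2%. Over all widths under 800 bases, which differ between the lists, peaks over none had 11.5% in the tumor and 13.5% in zcrest. The part of this, and of the unequal widths and gaps, in the distances above was not tested.

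**Figure D3:**
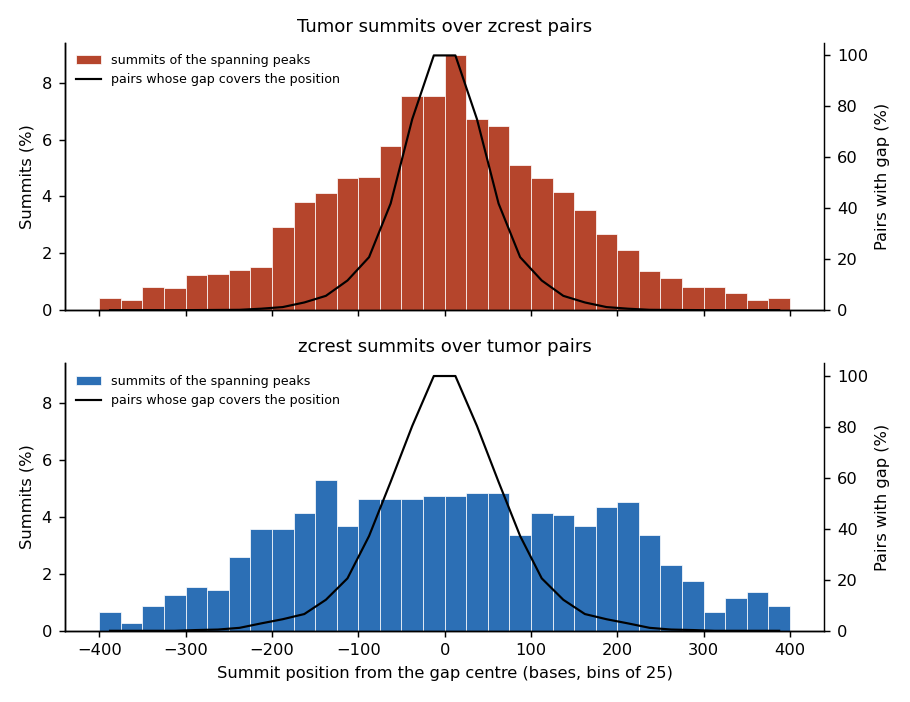
Summit position relative to the centre of the spanned gap (x, bases, bins of 25) as a share of summits (bars, left y, percent), for tumor peaks over zcrest pairs (top) and zcrest peaks over tumor pairs (bottom); the line (right y) gives the share of pairs whose gap covers that position. Within 75 bases of the centre lie 43.1% of tumor summits and 28.5% of zcrest summits.

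The wider the zcrest gap, the more often the tumor summit lay in it. A wider gap fills more of a peak under the width limit, so this rise was likely beforehand. At zcrest gaps of 52 to 74 bases the summit was in the gap in 99 of 496 bridging tumor peaks (20.0%, 16.5% to 23.8%), where gaps made up 14.4% of bases. At 100 to 149 bases it was in 227 of 554 (41.0%, 36.8% to 45.2%), with 26.04% of bases, and at 200 to 299 bases in 136 of 234 (58.1%, 51.5% to 64.5%), with 45.5% of bases. At 300 bases or more it was in 56 of 81 (69.1%, 57.9% to 78.9%), with 61.7% of bases. In the reverse case the shares at the same gap classes were 16.1%, 25.1%, 36.9% and 54.9%, with 13.04%, 23.3%, 39.5% and 58.3% of bases. From 150 bases upward the reverse-case share was at or below the gap's share of bases. In the tumor it was above it in each of the 6 classes. Gaps lie towards the middle of the spanning peak by the rule, so their share of bases is not an expected value for summits. The midpoint was in the gap more often than the summit in every class of both directions.

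The bridging tumor peaks with the summit in the gap were narrower and less enriched than the others. Their median width was 383 bases and their median fold enrichment 6.46, against 510 bases and 8.13 where the summit lay on a zcrest peak. Their median zcrest gap was 141 bases, against 98 bases. Fold enrichment rose with width among bridging tumor peaks, without a split by summit position. Its median was 6.77 at 300 to 399 bases, 7.34 at 400 to 499 bases and 8.16 at 500 to 599 bases. Whether peaks with the summit in the gap were less enriched at equal width was not tested. With the summit in the gap, the summit stood a median of 142.5 bases (139 to 147, over 760 pairs) from the nearer zcrest summit, and the zcrest summits stood 423 bases (408 to 436) apart. With the summit on a zcrest peak, the nearer zcrest summit was a median of 60.0 bases (55.0 to 64.0) away. A summit in the gap lies outside both zcrest peaks, so the longer distance there was likely beforehand. Over all bridging tumor peaks, the tumor summit lay between the outer zcrest summits in 1702 (82.3%). In the reverse case the zcrest summit lay between the outer tumor summits in 824 of 1044 (78.9%). The spanning peak must cross the gap between those summits, so a high share was likely beforehand.

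Where the tumor summit lay on 1 of 2 bridged zcrest peaks, it usually lay on the one that the tumor peak covered further. Of 1262 such bridging tumor peaks, the summit was on the zcrest peak with the longer overlap in 1095 (86.8%). The longer overlap holds more of the tumor peak's bases, so a majority there was likely beforehand. In the reverse case the same held in 561 of 715 (78.5%). The tumor summit was on the wider zcrest peak in 796 (63.1%), and on the zcrest peak of higher fold enrichment in 730 (57.8%, 55.1% to 60.6%). In the reverse case, the spanned tumor peak of higher fold enrichment held the zcrest summit in 464 of 715 (64.9%, 61.3% to 68.4%). A wider spanned peak offers more bases to overlap, and peaks of higher fold enrichment were wider. Under 800 bases, the median width in the lowest and highest fold deciles was 212 and 464 bases in zcrest. In the tumor it was 205 and 377 bases. A majority on the wider or more enriched peak was therefore likely beforehand. The bridged zcrest peaks were about as unequal as other neighbours in their list. The higher fold enrichment of a pair was 1.42 times the lower in the median, and 1.5 times or more in 885 of 2042 pairs (43.3%). Over all 21011 neighbouring zcrest peaks under 800 bases apart, it was 1.44 times in the median and 1.5 times or more in 45.1%.

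The same gaps were also read from the cell line's side, over all 21011 neighbouring zcrest peaks less than 800 bases apart. A tumor peak under 800 bases joined 2094 of these pairs (9.97%, 9.56% to 10.4%), and a wider tumor peak joined 713 more (3.39%). In 2810 pairs (13.4%) both zcrest peaks were found in the tumor as separate tumor peaks, with the gap kept. In 8596 pairs (40.9%) 1 zcrest peak was found in the tumor, and in 6798 (32.4%) neither was. Among 13485 neighbouring tumor peaks, a zcrest peak under 800 bases joined 1053 (7.81%), a wider one joined 1430 (10.6%), and both were found with the gap kept in 2639 (19.6%).

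Among zcrest pairs, joining by tumor peaks under 800 bases became rarer, and keeping the gap more common, as the gap grew. At zcrest gaps of 52 to 74 bases, tumor peaks under 800 bases joined 24.0% of pairs and the gap was kept in 6.69%. At 100 to 149 bases they joined 15.5% and it was kept in 10.6%, and at 200 to 299 bases they joined 5.91% and it was kept in 16.2%. A peak under a fixed width limit can reach over fewer of the longer gaps, and how much of this order that accounts for was not tested. For tumor pairs read against zcrest, peaks under 800 bases joined 17.9%, 16.1% and 8.29% at the same gaps, and the gap was kept in 9.92%, 16.5% and 18.8%. That order was not steady: they joined 15.6% at 75 to 99 bases, and the gap was kept in 14.7% at 150 to 199 bases. Zcrest peaks of 800 bases or more joined 12.6% to 14.96% of tumor pairs in each class under 300 bases. Among zcrest pairs, 1 peak found was the most frequent outcome in each gap class, at 32.5% in the shortest class and 43.7% at 200 to 299 bases. Among tumor pairs the same outcome made up 14.3% and 22.8%.

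**Figure D4:**
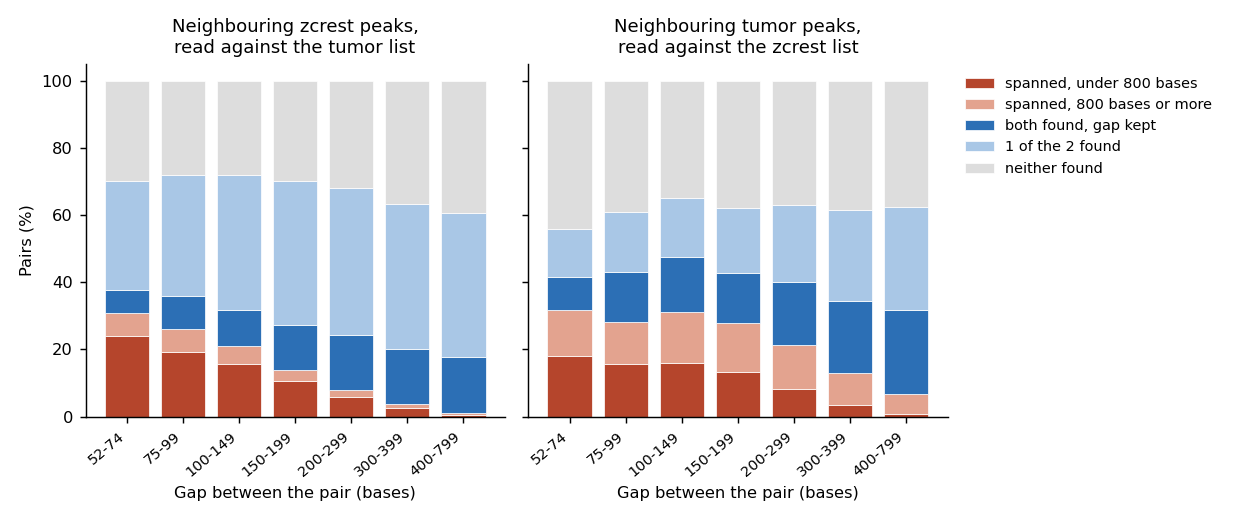
Neighbouring peaks under 800 bases apart by the length of their gap (x, bases) and by what the other list holds there (y, percent of pairs), for zcrest pairs read against the tumor (left) and tumor pairs read against zcrest (right). Tumor peaks under 800 bases join 24.0% of zcrest pairs in the shortest gap class and 5.91% at 200 to 299 bases.

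The bridged zcrest peaks leaned towards the gap. In pairs joined by a tumor peak under 800 bases, the zcrest summit lay on the gap-facing side of its own peak's midpoint in 66.6% of peaks. It did so in 62.4% where a wider tumor peak joined the pair, so the lean was not particular to bridging tumor peaks. The share was 57.9% where both peaks were found with the gap kept, 54.6% where 1 was found and 52.2% where neither was. At a fixed gap of 100 to 149 bases these shares were 69.6%, 65.1%, 59.2%, 55.9% and 55.4%. Tumor summits of pairs joined by a zcrest peak under 800 bases showed no such lean, with 50.1% on the gap-facing side. Zcrest peaks had a median width of 308 bases in pairs joined by a tumor peak under 800 bases. The median was 391.5 bases where a wider tumor peak joined the pair, 436 bases where the gap was kept and 255 bases where neither was found. Their median fold enrichment was 5.67, 5.87, 6.34 and 5.18 in the same order.

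The linked groups of overlapping peaks were mostly simple. Of the 2068 bridging tumor peaks, 1514 (73.2%) stood in a group of 1 tumor peak and 2 zcrest peaks that touched nothing else, and 20 in a group of 1 tumor and 3 zcrest peaks. Another 404 (19.5%) were in groups of 2 tumor and 2 zcrest peaks, a staggered arrangement in which the tumor peaks also share a zcrest peak. Larger chains held 130 (6.29%). At least 1 of the bridged zcrest peaks itself spanned 2 or more tumor peaks in 534 bridging tumor peaks (25.8%, 23.9% to 27.8%). Of the reverse-case zcrest peaks, 643 (61.6%) stood with 2 tumor peaks alone and 309 (29.6%) in groups of 2 and 2.

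The bridging tumor peaks of highest fold enrichment had their summit on a zcrest peak in 9 of 10 cases. In these 9 the gap measured 52 to 170 bases and the tumor peak 387 to 690 bases. The gap thus filled the lesser part of each, so a summit outside it was likely beforehand. The first of the 10, at chr23:8839378-8839995, had a fold enrichment of 36.8, the highest among the members. It reached 24 bases into a zcrest peak of 232 bases on 1 side, crossed a gap of 74 bases, and covered a zcrest peak of 485 bases, where its summit lay. The zcrest peaks had fold enrichments of 4.02 and 5.87 in their own list. The second was at chr16:48803298-48803684 (31.0-fold, gap 112 bases), where the zcrest peak on the right was 1083 bases wide. The one after it was at chr4:7417936-7418591 (27.8-fold, gap 131 bases). The one with its summit in the gap lay at chr12:7924044-7924564, with a fold enrichment of 25.7. Its summit stood 10.5 bases from the centre of a zcrest gap of 294 bases, between zcrest peaks of 2.32-fold and 9.70-fold.

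The other 6 of these 10 lay on chromosomes 2, 4, 6, 7, 16 and 21, with fold enrichments of 24.9 to 26.4. The one at chr2:47602475-47603119 joined zcrest peaks of 905 and 955 bases with fold enrichments of 14.96 and 8.80, across 170 bases. The one at chr21:35892888-35893299 crossed a gap of 52 bases, the smallest that occurs, and overlapped 1 of its zcrest peaks by 8 bases.

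The 5 bridging tumor peaks over the widest zcrest gaps all had their summit in the gap and had low fold enrichments of 4.54 to 6.45. They were picked by gap width and were 527 to 753 bases wide, so the gap filled most of each. A summit in the gap was therefore likely beforehand. The widest gap, 606 bases, was crossed at chr4:15654306-15655006 by a tumor peak of 701 bases and 6.40-fold. It met zcrest peaks of 1141 and 1185 bases, with fold enrichments of 9.54 and 17.0, by at least 27 bases each. At chr8:16913498-16914250 a tumor peak of 753 bases crossed 564 bases between zcrest peaks of 240 and 271 bases. The other three were at chr7:51682055-51682774 (gap 480 bases), chr23:5850808-5851334 and chr8:31181316-31181973 (gaps 472 bases each). In the chromosome 23 peak the summit was 13.5 bases from the gap centre.

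**Figure D5:**
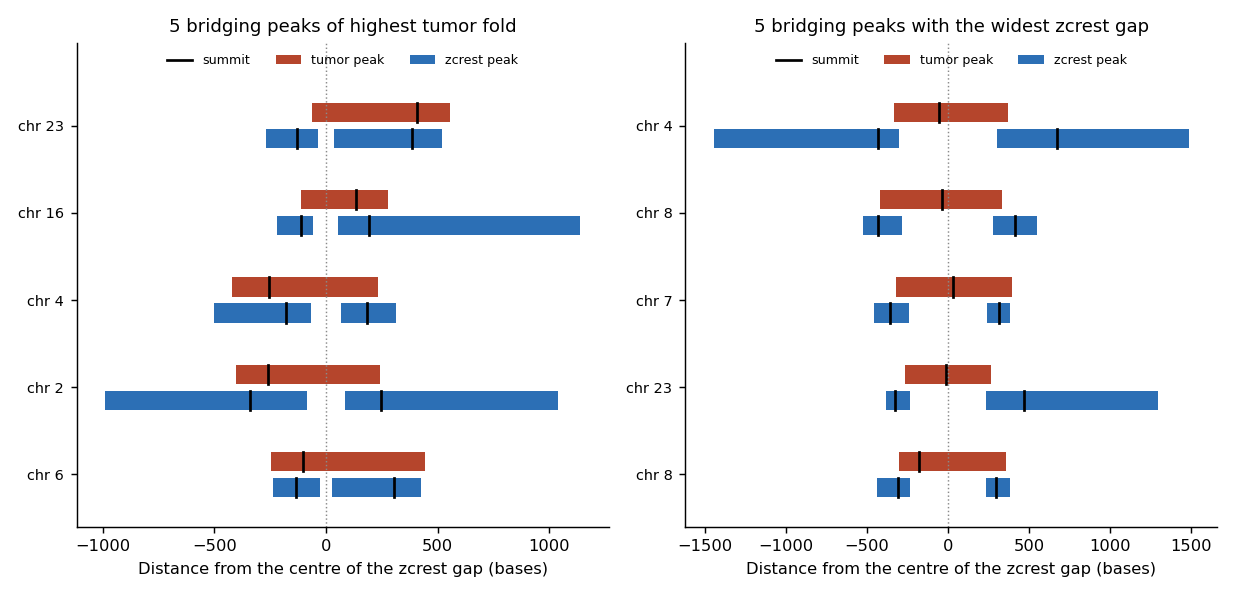
Tumor and zcrest peaks at 5 bridging tumor peaks of highest fold enrichment (left) and 5 with the widest zcrest gap (right), drawn to scale around the centre of the zcrest gap (x, bases); each row is 1 region, with the tumor peak above its zcrest peaks and black marks at summits. On the left all 5 tumor summits lie on a zcrest peak, and the gap fills the lesser part of each tumor peak. On the right all 5 lie in the gap, which fills most of each tumor peak there by the choice of regions.

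A zcrest gap of 52 bases, the smallest, lay under 12 bridging tumor peaks. The 5 of highest fold enrichment among them, from 9.73 to 24.9, were on chromosomes 5, 15, 17 and 21 and had their summit on a zcrest peak in 5 of 5 cases. Besides the chromosome 21 peak above, they were at chr21:14078230-14078758, chr17:12809362-12809696, chr15:23902809-23903516 and chr5:29084385-29084943. These 5 were 335 to 708 bases wide. A gap of 52 bases filled little of each, so a summit outside it was likely beforehand.

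The 26 bridging tumor peaks over 3 zcrest peaks were wide, at 680 bases in the median, and their fold enrichment was 8.97 in the median. The middle zcrest peak, which the tumor peak contained whole, had a median width of 207 bases (range 146 to 494). The tumor summit lay on this middle peak in 15, on an outer zcrest peak in 6 and in a gap in 5. Of the 9 reverse-case zcrest peaks over 3 tumor peaks, the summit was on the middle peak in 3, on an outer peak in 3 and in a gap in 3. The bridging tumor peak of highest fold enrichment over 3 zcrest peaks was at chr15:19804647-19805423 (14.5-fold, 777 bases). Its zcrest peaks of 165, 412 and 176 bases were separated by 103 and 63 bases, and the summit was on the middle one.

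The next was at chr9:35203740-35204179 (14.0-fold). It was 440 bases wide, the narrowest of the first 10 by fold enrichment, and overlapped its last zcrest peak by 6 bases. The peak at chr12:28348361-28349158 (13.6-fold) was 798 bases wide and overlapped 1 zcrest peak by 4 bases. In the peak at chr3:31763041-31763563 (13.1-fold) the summit lay in a gap, the only such case among the first 10. The next 6 were at chr21:18753938-18754683, chr11:18648403-18649045, chr4:17730402-17731100, chr2:37704455-37705202, chr15:22771669-22772225 and chr5:27716259-27716977. Above the width limit, spanning tumor peaks reached 6 zcrest peaks, in 1 peak of 2646 bases at chr10:206525-209170, which was picked out after its value was seen.

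In the reverse case, the zcrest peak of highest fold enrichment over 3 tumor peaks was at chr3:37142619-37143368 (12.2-fold, 750 bases). Its tumor peaks of 260, 157 and 252 bases were separated by 140 and 178 bases. The next were at chr14:28952750-28953470, chr9:27136513-27137234, chr3:62011186-62011715 and chr10:28883732-28884502. Their summit lay in a tumor gap in 2 of these 5.

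Bridging tumor peaks were found on all 25 chromosomes, with 41 on chromosome 24 and 134 on chromosome 5 at the extremes. They made up 2.15% of tumor peaks under 800 bases on chromosome 24 and 4.62% on chromosome 2. Of tumor peaks that overlapped any zcrest peak, they made up 6.25% on chromosome 24 and 10.7% on chromosome 4. They outnumbered reverse-case zcrest peaks on 25 of 25 chromosomes, by 1.17 times on chromosome 25 and 3.63 times on chromosome 4. These ratios are of counts, and the 2 lists differ in length. As shares of peaks under 800 bases, chromosome 25 had 3.04% in the tumor and 3.02% in the reverse case. Chromosome 4 had 2.83% and 1.47%. All chromosomes share the same 2 libraries, so these are not repeats of the comparison.

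In distance to the nearest other tumor peak of any kind, bridging tumor peaks were similar to tumor peaks over exactly 1 zcrest peak. Over all widths under 800 bases, the share of bridging tumor peaks in superenhancer-like domains was higher. The nearest other tumor peak was a median of 1044.5 bases away, against 934 bases for tumor peaks over exactly 1 zcrest peak and 2138 bases for those over none. Domains were made by stitching peaks within 12.5 kb, scored by the sum of width times fold enrichment, and called superenhancer-like above the point of slope 1. Bridging tumor peaks lay in superenhancer-like tumor domains in 659 cases (31.9%, 29.9% to 33.9%), against 26.7% of tumor peaks with exactly 1 overlap and 26.8% with none. The score itself grows with peak width. At 400 to 499 bases the shares were 29.3% (25.2% to 33.7%), 25.6% and 35.6%, and at 600 to 699 bases 28.3% (23.0% to 34.0%), 28.4% and 46.0%. Reverse-case zcrest peaks lay in superenhancer-like zcrest domains in 18.5% (16.2% to 21.0%), against 19.9% of all zcrest peaks under 800 bases.

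The 2068 bridging tumor peaks were spread over 1715 domains, 69 of which held 3 or more. The most in 1 domain was 6, reached by 3 domains that were picked out after their values were seen. They were at chr12:36944220-37089144 (71 tumor peaks, 63 zcrest peaks), chr17:12795738-12870751 (22 and 29) and chr22:18768747-19027880 (121 and 56).

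No bridging tumor peak overlapped a sox10 peak of the cell line. A count of 0 of 2068 allows a share of up to 0.145% by an approximate rule (3 counts of the total). The exact 95% interval reaches 0.178%. Among all tumor peaks under 800 bases 17 (0.0292%) overlapped one, so a difference was not detectable at these numbers. The 4136 bridged zcrest peaks also held 0 with a sox10 peak, against 231 of all 50338 zcrest peaks (0.459%). That count of 0 allows up to 0.0725% by the same rule and 0.0891% by the exact interval. Zcrest peaks under 800 bases over exactly 1 tumor peak held 4 of 19364 (0.0207%), so a low share was not particular to bridged peaks. A sox10 peak within 5 kb was found for 8 bridging tumor peaks (0.387%, 0.167% to 0.761%) and for 251 of all tumor peaks under 800 bases (0.432%). The median distance to the nearest sox10 peak was 1027 kb for bridging tumor peaks and 1059 kb for all tumor peaks under 800 bases.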

How the data were processed

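H3K27ac peak lists of 1 tumor library and 1 zcrest library, and a sox10 list of zcrest, were used; the 3 inputs were not used. Alignment was by Bowtie to Zv9 and peak calling by MACS2 (version 2.0), per the submitters' processing notes. The sources used here give neither the Bowtie version nor the control or thresholds of calling. The deposited lists give for each peak the fold enrichment (ratio to background), the p-value and q-value as −log10, a score (the −log10 q times 10, truncated) and the summit's distance from the peak start. Pooling is not described. Read depth is unknown.

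Peaks were intersected with pandas 2.3.3 and numpy 2.4.6 under Python 3.11.15. Intervals came from scipy 1.17.1 and figures from matplotlib 3.10.9. Positions are 1-based on Zv9. A gap is the bases between neighbouring spanned peaks. Shares have exact (Clopper-Pearson) 95% intervals and medians exact order-statistic 95% intervals. These cover counting error only. With 1 library per group no test was possible. The search was checked on simulated data. Members and lists were chosen with earlier results of these data known. Regions named are the 10 bridging peaks over the most zcrest peaks, the 10 of highest fold enrichment, 5 each with the widest and narrowest gaps, those beside the width limit, any with sox10 and 5 reverse-case peaks, ties going to the higher fold enrichment. Alternatives varied the width limit, overlap, q-value, joining of close peaks, position used, chromosomes and list length. Base composition, motifs and gene annotation were not analysed here, because no Zv9 genome was used.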

Additional observations from a re-analysis of the deposited data

How the results depend on the processing

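Of 51 alternatives to 5 values, 31 stayed within 1.5 times for a number or inside the 95% interval of the reported value otherwise; 5 of these, limiting the lists to chromosomes 1 to 25, left them as they were. Bridging tumor peaks outnumbered reverse-case zcrest peaks in 10 of 10 alternatives, and the share of summits in a gap was higher for tumor peaks in 9 of 10, the exception being the midpoint. Both tallies include the limit to chromosomes 1 to 25, which changed nothing. The first compares counts from lists of unequal length. As shares of all peaks without the width limit, spanning peaks made up 4.48% of the tumor list and 4.58% of the zcrest list.

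With a limit of 600 bases the shares with the summit in a gap were 42.5% for tumor peaks and 33.3% for zcrest peaks, and 562 zcrest peaks spanned. With a limit of 1000 bases the tumor share was 33.6%. With no limit the shares were 31.0% for tumor peaks and 22.5% for zcrest peaks, and 2303 zcrest peaks spanned. With an overlap of at least 50% of each spanned peak, 436 tumor peaks and 357 zcrest peaks spanned, the shares were 24.3% and 16.0%, and the median zcrest gap was 99 bases. Joining spanned peaks under 100 bases apart, which removes the shorter gaps by construction, gave 1204 bridging tumor peaks, shares of 47.2% for tumor and 33.7% for zcrest peaks, and a median gap of 154 bases. With the midpoint the shares were 48.4% and 50.4%. With the zcrest limit of 1164 bases, added after seeing the data, the reverse case held 1721 peaks with 24.6% of summits in a gap. The cause of the other changes was not tested. No paired analysis was possible because each group has 1 library. Depth is unknown, so neither how deeply a gap was read nor whether a deeper library would close it can be given.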
